A study of Rattus norvegicus with 4 samples.

Results

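The genes described here are 10 solute carriers known from the arachnoid barrier, the sealed cell layer of the meninges: Slc6a13, Slc6a20, Slc22a2, Slc22a6, Slc22a8, Slc13a3, Slc13a4, Slc47a1, Slc26a2 and Slc26a7. They were found by symbol among 17419 listed rows, of which 14004 were known genes with a symbol. Of those, 315 had a symbol that starts with Slc (Slc genes), and a few of these encode partners of carriers, not carriers. All 10 were listed in all 4 libraries. The set was chosen by its FPKM values, with the difference between bisphenol A (BPA) and control in these same libraries in view, so the treatment ratios of the 10 genes are given as a description and carry no test.

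RNA-seq was carried out on the prefrontal cortex, labelled frontal cortex, of newborn rat pups. Their strain is Wistar in the labels and Wistar Furth in the study's methods. Their age is postnatal day 1 in the labels, while the methods give a short range that starts on that day. The dams received BPA at 5000 µg/kg of body weight every day by oral gavage, starting on gestational day 1 and ending at birth, or the vehicle (ethanol in corn oil, which the BPA dams received too) over the same period. There was 1 library for each combination of sex and treatment, named after both (control male, BPA male and, for the other sex, control female and BPA female). The labels name no modified allele. The methods give several pups of independent litters for each sex and treatment but do not state whether a library pooled them, and within a sex 1 library stood against 1 without a replicate. Values are FPKM, fragments scaled to transcript length and to the fragments mapped in the library, which allows levels to be set side by side between genes. The files hold no counts, and the depth recovered from the spacing of low FPKM values was 9259250 fragments in the control male, 9186750 in the BPA male, 8958000 in the control female and 8999250 in the BPA female library. Intervals below are 95% exact Poisson intervals, or exact conditional binomial intervals for a ratio, from these estimated fragments, and they cover counting error only.

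The arachnoid barrier separates the blood vessels of the dura mater from the cerebrospinal fluid. Its cells are joined by tight junctions, and their membranes carry transporters that take organic anions, organic cations, amino acids and sulfate out of or into the fluid. Several of the same carriers are well known from the kidney tubule and some from the choroid plexus, the other epithelium that borders the cerebrospinal fluid.

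The name of the set was compared with marker genes, whose levels in bulk tissue do not show which cells held the 10 transporters. Of 10 structural genes of arachnoid barrier cells, Cldn11, which encodes a tight junction claudin, was at 17.24 and 6.25 FPKM in the control and BPA male libraries and at 18.13 and 3.56 FPKM in the control and BPA female libraries, and the gap junction gene Gjb2 was at 15.89, 5.0, 15.44 and 3.34 FPKM. Wherever 4 values are given in a row, they follow this order of libraries. Of the 10 structural genes, 7 had a mean FPKM of at least 1. The cadherin gene Cdh1 lay between 0.72 and 1.55 FPKM, and the keratin genes Krt8 and Krt18 lay between 0.13 and 1.16 FPKM. The labelled tissue was represented by the neuronal vesicular glutamate transporter Slc17a7 at 51.08, 30, 56.97 and 32.17 FPKM and by the astroglial glutamate transporter Slc1a3 at 112.23, 90.99, 118.12 and 84.61 FPKM. The study's methods state that the meninges were taken off before the cortex was collected. Fibroblast genes of the meninges were present in every library, with the values given beside the marker lists.

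Summed over the 10 transporters, the level was 74.51 FPKM in the control male, 35.89 in the BPA male, 96.51 in the control female and 31.71 in the BPA female library. The BPA sum was thus 48.2% of the control sum in males and 32.9% in females. All 10 transporters were lower in the BPA than in the control library in males and 9 were in females, the exception being Slc22a2. For those 9, both BPA values lay below both control values. The same was true of 33.4% of 10629 known genes with a mean FPKM of at least 1, and nothing is read from the count, because this contrast served to choose the genes. In bulk tissue, fewer cells of a type and less RNA per cell cannot be told apart.

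**Figure D1:**
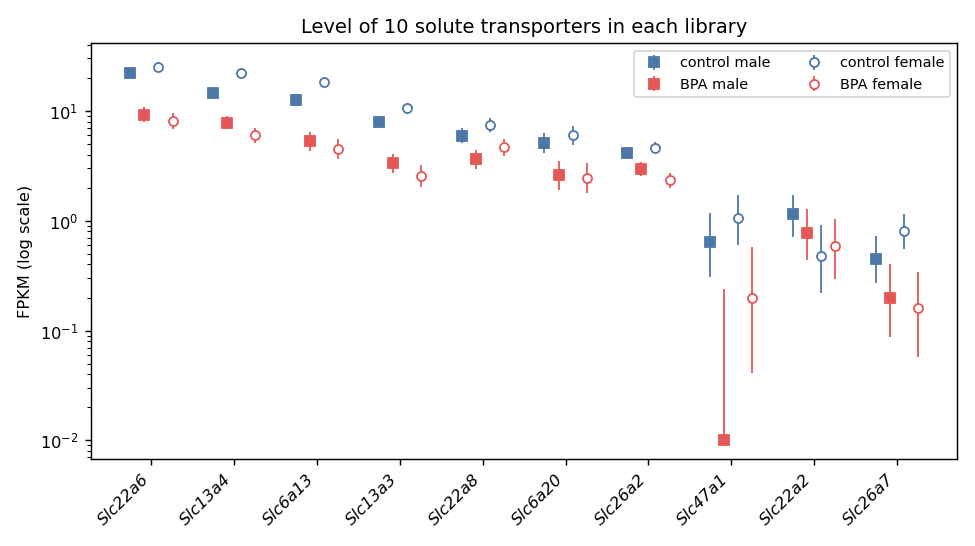
FPKM (log scale) of the 10 transporters in the 4 libraries, with filled squares for males, open circles for females, blue for control and red for BPA. Vertical lines are 95% exact Poisson intervals from estimated fragments, and the point of Slc47a1 at 0.01 FPKM is the lowest value the files list. Red points lie below both blue points for 9 genes, and for Slc22a2 the control female point is the lowest of the 4.

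The organic anion transporters of the set are Slc22a6 (OAT1) and Slc22a8 (OAT3), which take up anionic drugs, hormone conjugates and metabolites in exchange for dicarboxylates. Slc22a6 had the highest level of the 10, with 22.02 FPKM in the control male, 9.26 in the BPA male, 25.21 in the control female and 8.15 in the BPA female library. The controls were close to each other, and both BPA libraries lay well below them. The BPA library held 42% of the control level in males (interval 34.8 to 50.4%) and 32.3% in females (26.6 to 39%). The log2 ratio of BPA to control, computed throughout on FPKM + 0.5, was -1.21 in males and -1.57 in females.

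Slc22a8 had 5.96 FPKM in the control male, 3.64 in the BPA male, 7.45 in the control female and 4.67 in the BPA female library. Both BPA values lay below both controls, but the distance was smaller than for Slc22a6. The intervals of the BPA female (3.887 to 5.532) and control male (5.1 to 6.93) libraries overlapped. The female library was the higher of its sex pair under both treatments. The BPA level was 61.1% of control in males (47.3 to 78.5%) and 62.6% in females (49.9 to 78.5%), with log2 ratios of -0.64 and -0.62. Slc22a8 made up 8.0% of the summed level of the 10 genes in the control male and 7.72% in the control female library, against 10.1% in the BPA male and 14.7% in the BPA female library.

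Slc22a6 and Slc22a8 are next to each other on rat chromosome 1 in the GRCr8 gene order. The gene on the other side of Slc22a6, the muscarinic receptor gene Chrm1, was at 5.47, 5.75, 5.73 and 5.45 FPKM, which is a log2 ratio of 0.07 in males and -0.07 in females. Over all 10 transporters, 11 neighbouring genes outside the set were listed in all 4 libraries. Of these, 5 were lower with BPA in both sexes and 0 had a log2 ratio of -1 or lower in either sex, and their median log2 ratio was -0.15 in males and -0.07 in females. Among them was Fam180a, beside Slc13a4, at 2.64, 1.3, 2.0 and 0.81 FPKM, with log2 ratios of -0.80 and -0.93.

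Slc13a3 (NaDC3) brings dicarboxylates into the cell with sodium, and these are the ions that organic anion transporters give out in exchange. Its level was 7.98 FPKM in the control male, 3.33 in the BPA male, 10.59 in the control female and 2.58 in the BPA female library. Each BPA library lay below each control, and the BPA female library was the lowest. The BPA level was 41.7% of control in males (32.5 to 53.1%) and 24.4% in females (18.6 to 31.6%), and the log2 ratios were -1.15 and -1.85. Its promoter is shown because this gene and Slc13a4, of the same family, are among the members with the lowest ratios. The window runs from 250 bases before to 50 bases after the transcription start, at chr3:174623844-174624143 on the minus strand of GRCr8, as given by RefSeq, 5′ to 3′, with GC boxes (GGGCGG on either strand) in capitals.
Slc13a3: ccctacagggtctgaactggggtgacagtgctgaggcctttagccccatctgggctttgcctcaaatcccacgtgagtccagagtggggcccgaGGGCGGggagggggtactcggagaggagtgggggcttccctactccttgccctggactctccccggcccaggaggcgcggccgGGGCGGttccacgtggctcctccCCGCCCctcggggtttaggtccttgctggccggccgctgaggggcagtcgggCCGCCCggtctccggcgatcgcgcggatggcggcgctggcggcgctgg

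The window of Slc13a3 had 71.7% G and C and 26 CpG dinucleotides, against medians of 51.7% and 7 over 33469 promoters of the same length. It held 4 GC boxes, a motif found in 33.1% of those promoters. Promoters were on hand for 6 of the 10 transporters, the others being Slc6a13, Slc22a6, Slc47a1 and Slc26a7. Of the motifs searched on both strands, TATAAA (in 14.2% of all promoters), TGTTTAC (3.78%), AGGTCA (16.2%) and CAGCTG (15.1%) had 0 matches in the 6 windows. GC boxes were found in the windows of Slc13a3, Slc13a4 (1) and Slc26a2 (2), and none was found in those of Slc6a20, Slc22a2 and Slc22a8. A match is a description of the letters only.

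Both organic cation carriers had a mean under 1 FPKM. Slc22a2 (OCT2) takes up organic cations such as monoamines, and Slc47a1 (MATE1) exports organic cations in exchange for protons. Slc22a2 was at 1.14 FPKM in the control male (interval 0.713 to 1.722), 0.78 in the BPA male (0.437 to 1.289), 0.48 in the control female (0.22 to 0.913) and 0.59 in the BPA female library (0.292 to 1.047), from 22, 15, 9 and 11 fragments. The groups overlapped, since the control female library was the lowest. The log2 ratio was -0.36 in males and 0.15 in females, and the BPA level was 68.7% of control in males (33.2 to 139%) and 122% in females (45.8 to 332%).

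Slc47a1 was at 0.64 FPKM in the control male library (0.307 to 1.176, from 10 fragments) and listed at the lowest value, 0.01 FPKM, in the BPA male library. It was at 1.06 FPKM in the control female library (0.604 to 1.717, from 16 fragments) and at 0.20 in the BPA female library (0.041 to 0.577, from 3 fragments). Both controls were above both BPA libraries. In the BPA male library 3 fragments, the floor for a count of 0, are 0.193 FPKM, and the exact Poisson interval reaches 0.238. Against that floor the level was at least 3.32-fold lower than the control male value taken as it stands. With the counting error of both libraries, the BPA level in males was 0 to 45% of control. In females the BPA level was 18.7% of control, with an interval of 3.49 to 65.2%. Both log2 ratios depend on the 0.5 FPKM added. That of -1.16 in females was -1.95 with 0.1 and -0.78 with 1 FPKM added, so with 1 it no longer reached -1, and that of -1.19 in males was -0.72 at 3 fragments. The neighbouring paralog Slc47a2 was at 0.39 FPKM in the control male, at the lowest listed value in the BPA male, at 0.07 in the control female and at 0.13 in the BPA female library.

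The carriers of amino acids and related solutes are Slc6a13 (GAT2), which takes up GABA and taurine with sodium and chloride, and Slc6a20, which takes up proline and other imino acids. Slc6a13 was at 12.54 FPKM in the control male, 5.28 in the BPA male, 18.18 in the control female and 4.54 in the BPA female library. The control female library was the highest and the BPA female library the lowest, with both BPA values below both controls. With BPA, Slc6a13 was at 42.2% of control in males (33.3 to 53.2%) and 25% in females (19.6 to 31.7%), with log2 ratios of -1.17 and -1.89. Of the 10629 known genes with a mean FPKM of at least 1, 0.16% had a lower mean log2 ratio over both sexes than Slc6a13, the lowest of the 10. For the other members this share ran from 0.207% for Slc13a3 to 3.68% for Slc26a2 and 3.71% for Slc22a8, and it was 38.5% for Slc22a2. Slc22a2, Slc26a7 and Slc47a1 had a mean under 1 FPKM and are not among those genes themselves. Nothing is read from these shares, because the same ratios served to choose the 10.

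Slc6a20 was at 5.15 FPKM in the control male, 2.59 in the BPA male, 5.98 in the control female and 2.46 in the BPA female library. Libraries of the same treatment were near each other and the treatments were apart. The BPA level was 50.4% of control in males (34.4 to 72.9%) and 41.4% in females (28.2 to 59.9%), with log2 ratios of -0.87 and -1.13. RefSeq names the gene Slc6a20a. Its promoter is shown as one without a GC box beside the 2 Slc13 genes, at chr8:132199851-132200150 on the minus strand of GRCr8, with 53.3% G and C and 14 CpG dinucleotides.
Slc6a20: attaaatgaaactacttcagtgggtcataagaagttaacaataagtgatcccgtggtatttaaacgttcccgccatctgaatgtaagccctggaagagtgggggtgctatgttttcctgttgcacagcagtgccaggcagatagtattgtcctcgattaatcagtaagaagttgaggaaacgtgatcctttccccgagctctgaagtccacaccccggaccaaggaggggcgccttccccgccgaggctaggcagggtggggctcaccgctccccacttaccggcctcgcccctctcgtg

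The carriers of sulfate and other inorganic anions are Slc13a4, which takes up sulfate with sodium, Slc26a2, a sulfate transporter needed for the sulfation of proteoglycans, and Slc26a7, an anion exchanger and chloride channel. Slc13a4 was at 14.47 FPKM in the control male, 7.83 in the BPA male, 22.15 in the control female and 6.02 in the BPA female library. The control female value stood apart from the control male value, and both BPA values lay below both controls. The BPA level was 54.1% of control in males (45.7 to 64%) and 27.1% in females (22.7 to 32.3%). The log2 ratios were -0.85 and -1.80. The promoter of Slc13a4, at chr4:64955937-64956236 on the minus strand of GRCr8, held 1 GC box, in capitals, with 50.7% G and C and 5 CpG dinucleotides.
Slc13a4: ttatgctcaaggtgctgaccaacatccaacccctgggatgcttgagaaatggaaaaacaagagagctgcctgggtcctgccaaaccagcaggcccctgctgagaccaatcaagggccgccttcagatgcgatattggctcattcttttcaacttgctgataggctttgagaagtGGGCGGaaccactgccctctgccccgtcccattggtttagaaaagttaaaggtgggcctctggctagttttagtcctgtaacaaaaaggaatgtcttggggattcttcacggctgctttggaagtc

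Slc26a2 was at 4.16 FPKM in the control male, 2.98 in the BPA male, 4.60 in the control female and 2.34 in the BPA female library. The groups did not overlap, and the BPA male value lay closer to the controls than the BPA female value did. With BPA, Slc26a2 was at 71.5% of control in males (59.3 to 86%) and 50.8% in females (41.5 to 61.8%), with log2 ratios of -0.42 and -0.84. Slc26a7 was low, at 0.45 FPKM in the control male, 0.20 in the BPA male, 0.81 in the control female and 0.16 in the BPA female library. Both BPA values were below both controls, from 18, 8, 31 and 6 fragments. For Slc26a7 the BPA library held 44.8% of control in males, with an interval of 16.9 to 108%, and 19.3% in females (6.57 to 46.9%).

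A log2 ratio of -1 or lower was reached by 4 of the 10 transporters in males (Slc22a6, Slc6a13, Slc13a3 and Slc47a1), or by 3 with Slc47a1 at 3 fragments. Among all rows listed in males, 2.57% had such a ratio and 4.33% were past 1 in either direction, and among known genes these shares were 1.18% and 1.53%. In females it was reached by 6, namely Slc6a13, Slc13a3, Slc13a4, Slc22a6, Slc47a1 and Slc6a20, against 3.56% of all rows and 2.21% of known genes, and 5.22% and 2.47% of them were past 1 in either direction. The members just inside this limit were Slc13a3 in males (-1.15) and Slc6a20 in females (-1.13), and those just outside it were Slc6a20 in males (-0.87) and Slc26a7 in females (-0.99). That of Slc26a7 depends on the 0.5 FPKM added, and was -1.81 with 0.1 and -0.64 with 1 FPKM added. The median log2 ratio of the 10 was -0.86 in males, or -0.78 with Slc47a1 at 3 fragments, and -1.14 in females. Over known genes with a mean FPKM of at least 1 the median was -0.04 in males and -0.05 in females.

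The transporters were then set beside the other Slc genes. Of 213 Slc genes with a mean FPKM of at least 1, the 4 with the lowest mean log2 ratio over both sexes were Slc6a13, Slc13a3, Slc22a6 and Slc13a4, and Slc6a20 was number 6. Slc26a2 and Slc22a8 were numbers 17 and 18, behind genes outside the set, and the order rests on the ratios that served to choose the 10. Number 5 was Slc7a11, the cystine and glutamate exchanger, which is not in the set and was at 12.23, 5.76, 14.74 and 5.41 FPKM. Its log2 ratios were -1.02 and -1.37, and it fell in limma over both sexes (adjusted p = 0.0321). No row was called without the BPA male or without the BPA female library, so this call is lost there. Numbers 7 to 10 were the monocarboxylate carrier gene Slc16a11 (-0.75 in males and -1.10 in females, limma adjusted p = 0.281), the magnesium carrier gene Slc41a3 (-1.02 and -0.79, adjusted p = 0.0866), the mitochondrial glutamate carrier gene Slc25a18 (-0.67 and -1.11, adjusted p = 0.108) and the sugar carrier gene Slc50a1 (-0.65 and -0.95, adjusted p = 0.236).

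At the other end of the 213 genes were Slc38a6 (0.17 in males and 1.14 in females), the nucleoside carrier gene Slc28a2 (0.81 and 0.49), Slc25a40 (0.67 and 0.58), Slc16a14 (0.46 and 0.46) and Slc45a1 (0.28 and 0.52). None of these 5 passed limma on all rows, with adjusted p between 0.131 and 0.455. In limma on known genes alone, Slc45a1 (adjusted p = 0.0428), Slc41a3 (0.0173) and Slc25a18 (0.0193) passed. Among 286 Slc genes outside the set that all 4 libraries listed, 3 had a log2 ratio of -1 or lower in males, 6 in females and 1 in both, and their median was -0.09 in males and -0.12 in females. Of 206 tested in limma, 3 fell and 0 rose (at an unadjusted p under 0.05, 38 were lower and 5 higher), where 0.456% of all 13163 rows tested fell and 2283 had an unadjusted p under 0.05. On known genes alone, 14 fell and 2 rose, where 3.79% of 10629 known genes fell and 4.49% passed in either direction.

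**Figure D2:**
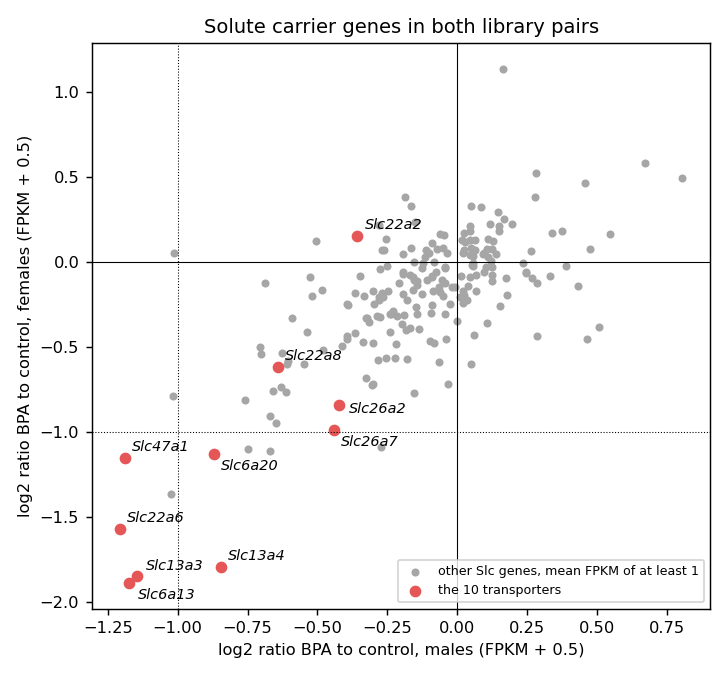
Log2 ratio of BPA to control (FPKM + 0.5) in males, on the horizontal axis, and in females, on the vertical axis, for 206 other Slc genes with a mean FPKM of at least 1 (grey) and the 10 transporters (red). Dotted lines mark -1. Slc6a13, Slc13a3 and Slc22a6 lie in the lower left corner, and Slc22a2 is the one red point above 0 in females. Slc47a1 in males depends on the 0.5 FPKM added.

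In the Slc6, Slc22 and Slc26 families, the medians of the genes outside the set were nearer to 0 than those of the 10 transporters. The 11 other Slc6 genes listed in all 4 libraries had a median log2 ratio of -0.20 in males and -0.16 in females, and 0 of them was at -1 or lower. The glial GABA transporter Slc6a11 was at 36.35, 31.61, 39.18 and 30.32 FPKM. It was above Slc6a13 in every library, with log2 ratios of -0.20 in males and -0.36 in females. The 10 other Slc22 genes had medians of -0.08 and 0.0, and Slc22a17 was the highest of them at 130.3, 134.48, 131.57 and 135.47 FPKM. The 6 other Slc26 genes had medians of -0.05 and 0.0. Slc13a5, the citrate carrier, was at 1.76, 0.89, 1.86 and 1.12 FPKM, with log2 ratios of -0.70 and -0.54, and did not pass limma (adjusted p = 0.301).

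Genes that serve related functions were counted over lists, and the counts at an unadjusted p under 0.05 stand beside the 2283 of 13163 rows given above. Of 22 other drug and organic ion transporters listed in all 4 libraries, 0 of 15 tested passed limma (at an unadjusted p under 0.05, 2 were lower and 2 higher), and the median log2 ratio was -0.08 in males and -0.20 in females. The prostaglandin carrier gene Slco2a1 was at 2.21, 2.03, 3.46 and 1.2 FPKM, with log2 ratios of -0.10 and -1.22. Of 10 transporters of the blood-brain barrier endothelium, 0 of 9 tested passed limma (at an unadjusted p under 0.05, 3 were lower and 1 higher), with medians of -0.04 and -0.25. The most abundant of these, the amino acid carrier gene Slc7a5, was at 44.43, 65.21, 48.17 and 54.07 FPKM.

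Among genes of sulfate transport and activation outside the set, 0 of 7 tested passed limma (1 at an unadjusted p under 0.05), with medians of -0.15 and -0.14. The sulfotransferase gene Sult1a1 was at 5.1, 4.11, 8.72 and 1.52 FPKM, with log2 ratios of -0.28 in males and -2.19 in females. Of the genes that supply the ion gradients and pH on which such carriers depend, 0 of 10 tested passed limma (2 at an unadjusted p under 0.05), and the medians were -0.17 and -0.19. Of 9 glial transporters tested 1 fell, Slc7a11, and of 13 neuronal transporters 1 fell, Slc17a7 (adjusted p = 0.0276 in limma), where 0.456% of all rows fell. Both calls are lost without either BPA library, and on known genes alone 5 of the glial and 5 of the neuronal transporters fell, where 3.79% of known genes did. The medians were -0.26 and -0.45 for the glial and -0.28 and -0.40 for the neuronal list.

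Markers of the meninges and the vessel wall were measured in the same libraries. Their lists were chosen with earlier results of these data known. Their counts and adjusted p-values are therefore a description, and nothing is read from them. Of the 10 structural genes of the arachnoid barrier, 8 were lower with BPA in males and 9 in females. Krt8 was higher in males (log2 ratio 0.80) and lower in females (-1.38), and Krt18 was the same in males (0.0) and higher in females (0.46), all at low levels. Of the 10, 3 had a log2 ratio of -1 or lower in both sexes, where 1.18% of known genes had one in males and 2.21% in females. In limma 0.456% of all rows fell, and 3 of 7 tested here did, namely Cldn11 (adjusted p = 0.0462), Gjb2 (0.0276) and Gjb6 (0.0409). Gjb6, another gap junction gene, was at 6.92, 2.36, 7.81 and 1.71 FPKM. The summed level of the 10 structural genes was 68.69 FPKM in the control male, 36.58 in the BPA male, 77.34 in the control female and 27.88 in the BPA female library, and the median log2 ratios were -0.42 and -1.06.

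Of 16 markers of leptomeningeal fibroblasts, all 16 had a mean FPKM of at least 1 and were lower with BPA in both sexes. A log2 ratio of -1 or lower in both sexes was found for 9, where 1.18% of known genes had one in males and 2.21% in females. In limma 7 fell, namely Igf2, Col1a1, Col1a2, Col3a1, Dcn, Ogn and Bmp7. The other genes of the 9, Lum (log2 ratios of -1.13 and -1.86, adjusted p = 0.0776) and Tbx18 (-1.15 and -1.32, adjusted p = 0.1), did not pass. The growth factor gene Igf2 was at 61.22, 18.69, 61.1 and 14.13 FPKM (adjusted p = 0.0254). The collagen gene Col1a2 was at 50.45, 21.71, 58.67 and 17.15 FPKM (adjusted p = 0.0256). Ptgds, the prostaglandin D synthase gene and the most abundant of the list, was at 214.04, 109.08, 320.0 and 66.86 FPKM and did not pass (adjusted p = 0.073). The list's median log2 ratio was -1.02 in males and -1.72 in females, and its sum was 557.3, 279.88, 708.78 and 193.77 FPKM. The limma calls in these lists came from a fit with 2 residual degrees of freedom that called 74 of 13163 rows (0.562%), and leaving out the control male or the BPA male library left 3 and 0 calls in all, and leaving out the control female or the BPA female library left 6 and 0. A fit on known genes alone called 4.49% of them, and 3.79% were calls of lower genes.

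The summed transporters amounted to 13.4% of the summed fibroblast markers in the control male, 12.8% in the BPA male, 13.6% in the control female and 16.4% in the BPA female library. Without Ptgds these shares were 21.7, 21.0, 24.8 and 25.0%. Set against 8 endothelial markers, the transporters amounted to 69.8% and 75.9% in the control male and female libraries and to 39.7% and 43.1% in the BPA male and female libraries. The endothelial markers summed to 106.73, 90.39, 127.09 and 73.53 FPKM, with median log2 ratios of -0.32 and -0.84, and 0 of 8 passed limma (5 at an unadjusted p under 0.05). For 8 markers of mural cells the sums were 60.5, 48.87, 67.94 and 48.96 FPKM, the medians were -0.24 and -0.41, and 0 of 8 passed limma (4 at an unadjusted p under 0.05). The shares against the fibroblast markers differed less between the treatments than those against the endothelial markers. The part of meningeal tissue in the ratios of the transporters was not tested.

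Markers of the choroid plexus epithelium were low. None of 10 reached a mean FPKM of 1, and their sums were 2.82, 1.89, 3.82 and 1.53 FPKM. Of the defining markers, Ttr, the gene of the thyroxine carrier transthyretin, was not listed in males, was at 0.35 FPKM in the control female library and was at the lowest listed value in the BPA female library. The folate receptor gene Folr1 was at the lowest listed value in both controls and at 0.09 FPKM in both BPA libraries. The potassium channel gene Kcnj13 had the highest mean of the list, at 1.25, 0.45, 1.67 and 0.46 FPKM. Aqp1 followed at 0.8, 0.72, 1.18 and 0.35 FPKM and was above Kcnj13 in the BPA male library. Slc22a6 and Slc6a13 were each above the sum of all 10 of these markers in every library.

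**Figure D3:**
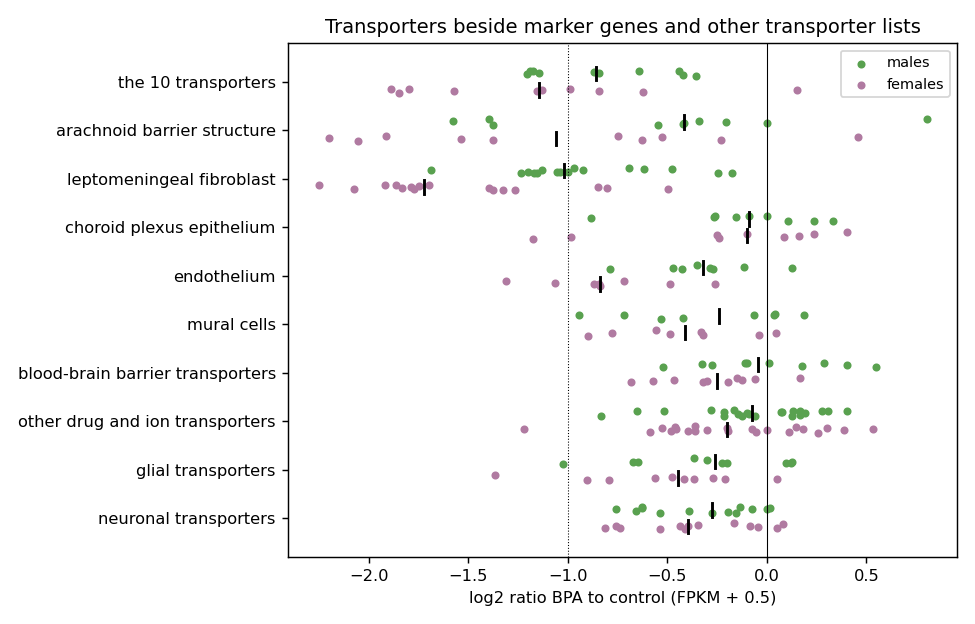
Log2 ratio of BPA to control (FPKM + 0.5, horizontal axis) of each gene in males (green) and females (purple) for the 10 transporters, the marker lists and the other transporter lists, with black bars at the medians. The medians of the transporters are -0.86 and -1.14 and those of the leptomeningeal fibroblast markers -1.02 and -1.72, while the medians of the other transporter lists lie between -0.45 and -0.04.

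Libraries of the same treatment were also set side by side between the sexes. The values of these 4 libraries served to choose the genes, so the counts and the shares of known genes beside them are a description and nothing is read from them. Among controls, 9 of the 10 transporters were higher in the female than in the male library, where 49.9% of known genes were. The median female minus male difference was 0.34 on the log2 scale, with Slc13a4 (0.60) and Slc6a13 (0.52) the highest and Slc22a2 (-0.74) the lowest, against a median of 0.0 over known genes. Among BPA libraries, 8 of the 10 were lower in the female than in the male library, where 54.2% of known genes were, and the median difference was -0.19, against -0.02 over known genes. The exceptions were Slc22a8 (0.32) and Slc47a1 (0.49), the latter with 0 and 3 fragments.

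The log2 ratio was lower in females than in males for 7 of the 10 transporters, where it was lower for 52.9% of known genes. The difference was -0.95 for Slc13a4, -0.72 for Slc6a13 and -0.70 for Slc13a3, and it was 0.02 for Slc22a8. The median difference was -0.39 over the transporters and -0.01 over known genes. With 1 library for each sex and treatment, the difference cannot be tested, and sex cannot be told apart from the library. The other lists varied. Of the fibroblast markers, 13 of 16 were higher in the control female than in the control male library, 15 of 16 were lower in the BPA female than in the BPA male library, and 16 of 16 had the lower ratio in females. The ratio was also lower in females for 10 of 10 transporters of the blood-brain barrier endothelium, 10 of 10 glial transporters and 7 of 8 endothelial markers. It was lower in females for 8 of 13 neuronal transporters, 11 of 22 other drug and organic ion transporters, 4 of 8 genes of the sulfate list and 157 of 286 Slc genes outside the set. Of the endothelial markers, 8 of 8 were higher in the control female than in the control male library and 5 of 8 were lower in the BPA female than in the BPA male library.

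**Figure D4:**
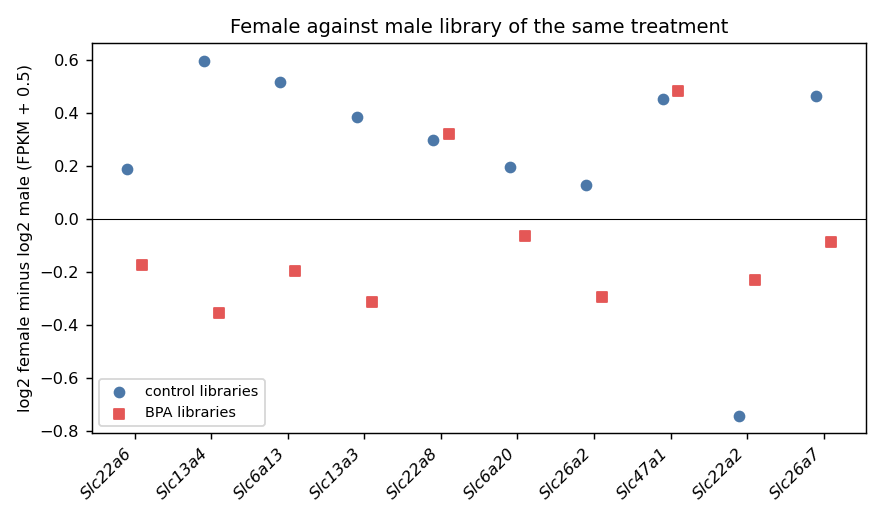
Female minus male difference in log2(FPKM + 0.5) for each transporter between the control libraries (blue circles) and between the BPA libraries (red squares), with a line at 0. Circles lie above 0 for 9 genes and squares below 0 for 8, and Slc22a8 and Slc47a1 have both above 0.

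The order of the levels among the 10 genes was partly shared by the libraries. Slc22a6 was the highest in all 4. In both control libraries it was followed by Slc13a4, Slc6a13 and Slc13a3, and these 4 genes made up 76.5% of the summed level in the control male and 78.9% in the control female library, but 71.6% and 67.1% in the BPA male and BPA female libraries. In the BPA female library Slc22a8 (4.67 FPKM, interval 3.887 to 5.532) and Slc6a13 (4.54 FPKM) did not differ beyond their intervals, and both were above Slc13a3 (2.58 FPKM). In the BPA male library the 4 highest included Slc22a8 (3.64 FPKM, 2.972 to 4.416), whose interval held the value of Slc13a3 (3.33 FPKM). Slc22a2, Slc26a7 and Slc47a1 were the lowest 3 in every library.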

How the data were processed

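Polyadenylated RNA from the prefrontal cortex of newborn rats was sequenced in 4 libraries. The authors mapped reads with Bowtie2 and quantified them with RSEM on the rat genome rn6, and the submitters' processing notes also name HISAT. Tool versions are not given in the sources used here. The deposited values are FPKM, normalized by the authors for transcript length and depth, with 2 decimals and none below 0.01, which was taken as 0. Each known gene has 1 row, so values were used as deposited.

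Fragments were estimated from the FPKM, the length less 60 bases and the depth at which scarce rows came closest to whole fragments (84.0 to 86.1% of 928 to 984 rows came within 0.1 of a whole number). A ratio is the difference of log2(FPKM + 0.5) between the BPA and the control library. With 1 library against 1, a gene was counted at an absolute log2 ratio of at least 1, without a test. For genes outside the set, the sexes served as the 2 libraries of a treatment in limma 3.58.1 (R 4.3.3), on rows whose mean FPKM was 1 or more, with a trended prior variance, treatment as the only term, Benjamini-Hochberg adjustment and a threshold of 0.05. P-values measure the spread between these libraries. The study combined the sexes too, but its test on reads needs counts. The depth estimate and the limma fit were tested on simulated data.

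The 10 transporters and all gene lists were chosen with earlier results of these data known. The rule for naming genes took all 10, the genes of a list at an absolute log2 ratio of at least 1 in both sexes, at most 3 of its most abundant genes, and the 10 lowest and 5 highest Slc genes. The genes Cdh1, Krt8, Krt18, Slco2a1, Sult1a1, Chrm1, Fam180a, Ttr and Folr1 fall outside that rule and were chosen after their values were seen. Kcnj13 and Aqp1, the highest of their list by mean FPKM, were also named after their values were seen. The alternatives were other pseudocounts, scalings and filters, known genes only, sex as a block and leaving out each library. Of 14008 Gene IDs, 13923 were found in a RefSeq table of GRCr8, which was used for names and gene order, and promoters came from RefSeq on the same build. Other computations used Python 3.11.15, numpy 2.4.6, pandas 2.3.3, scipy 1.17.1 and matplotlib 3.10.9.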

Additional observations from a re-analysis of the deposited data

Results flagged for a closer look

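Slc22a2 was marked for a closer look because its male and female libraries went opposite ways. The log2 ratio of BPA to control was -0.36 in males and 0.15 in females. The difference between the sexes was not tested, and the values rest on 22 and 15 fragments in males and on 9 and 11 in females. The mean over both sexes was -0.10, and it was 0.27 without the control male, -0.22 without the BPA male, -0.47 without the control female and 0.01 without the BPA female library.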

How the results depend on the processing

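The number of transporters with a log2 ratio of -1 or lower stayed at 3 or 4 in males and 5 to 7 in females under the other pseudocounts and scalings. Their median in females, -1.14, was -1.71 with a pseudocount of 0.1, -0.90 with 1 and -1.53 on TPM, where values are larger against the same pseudocount. The median of the mean ratio over both sexes, -1.09, lay between -1.25 and -0.92 with any 1 library left out. Of 141 alternative values of single transporters, 2 had the other sign, both of Slc22a2. Another pseudocount cannot change the sign of a ratio. Leaving out 1 library cannot change it for the 9 genes with both BPA values below both control values. Nothing is therefore read from this count. All rows past the threshold, 726 in males and 878 in females, numbered 1877 and 2200 with a pseudocount of 0.1, 401 and 508 with 1, 1229 and 1493 on TPM, 425 and 552 at a mean FPKM of at least 1, and 206 and 335 among known genes. Slc genes at -1 or lower in both sexes numbered 5, and 3 with a pseudocount of 1.

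In limma, the 74 calls became 0 without a filter (2628 at an unadjusted p under 0.05), 477 among known genes, 86 with sex as a block, and 0 to 6 with 1 library left out, where the lone library is assumed to vary like the others. Among known genes, an alternative chosen after seeing the data, the calls were 13 in place of 7 for the fibroblast markers, 4, 2 and 2 in place of 0 for endothelial markers, mural markers and blood-brain barrier transporters, 1 in place of 0 for other drug transporters (Slc29a4, higher), and 5 in place of 1 for the glial and for the neuronal transporters. The causes were not tested. Other scalings shifted the median log2 ratio of known genes by at most 0.05. No paired analysis was possible because each group has 1 library, apart from sex as a block. With 1 library per sex and treatment, neither the spread between pups or litters nor the error of a difference in the treatment ratio between the sexes can be estimated, and the 3 transporters with a mean under 1 FPKM rest on 31 fragments or fewer.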
